A study of Mus musculus with 21 samples.

Results

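The 35 genes described here carry glucose through glycolysis to lactate or belong to the transcriptional response to low oxygen. They were taken by symbol, and all 35 were found among 43776 gene symbols of the 3-population table and in both tables of cultures. By role they comprise 14 glycolytic enzymes, 3 regulators of glycolytic flux and of pyruvate entry, 4 genes of glucose and acid transport, 2 HIF feedback genes and 12 other hypoxia response genes. Below, the last 4 groups together are called the 21 members outside glycolysis.

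The study profiled polyadenylated RNA of mouse keratinocytes in 21 libraries, in 7 groups of 3. The first 3 groups were total epidermal cells, hair follicle stem cells (HFSCs) purified by FACS, and cultured HFSCs (3C-HFSCs, from the HFSC culture system called 3C). These 3 groups are given as wild type. The other 4 came from total epidermal cells kept in 3C culture for 10 to 14 days. From these cultures the CD34+ alpha-6 integrin+ and the CD34neg alpha-6 integrin+ cells were sorted, and other cultures were treated for 48 h with cyclopamine or with dorsomorphin. Cyclopamine blocks Smoothened in the Hedgehog pathway, and dorsomorphin blocks type I BMP receptors and AMP-activated kinase. The submitters state that the inhibitors were used to enrich (cyclopamine) or deplete (dorsomorphin) HFSCs in culture. The genotype of these 4 groups, and mouse strain and age throughout, are not given in the sources used here. No untreated culture enters the inhibitor comparison, so there "higher with dorsomorphin" and "lower with cyclopamine" cannot be told apart.

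The deposited tables give 1 FPKM value per population (fragments scaled by transcript length and library size) with the authors' own test, so no spread between replicates can be shown. Read depth is unknown, and precision rests on that test alone. Whether the 3 libraries of 1 group stem from different mice or culture dishes is not stated in the labels, and the p-values then measure only the spread between these libraries. An adjusted p below 0.05 from the authors' deposited table counts here as a call, and the FPKM values give its direction. The 3-population table names its columns bulk, CD34a6 and HFSC. Bulk was read as total epidermal cells. The labels do not settle which of CD34a6 and HFSC is the freshly sorted and which the cultured population, so the column names are kept. HFSC below is therefore only a column name, and its values are not assigned to freshly sorted stem cells. That reading of the name would go against the bulge markers, which summed to 114 FPKM in HFSC and 10902 FPKM in CD34a6. Each table was normalised on its own. Ranks and levels from different tables are set side by side in a few places, with no test.

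Keratinocyte markers (6 genes, such as Krt5 and Krt14) were present in all 7 populations, with summed levels of 8561 to 17058 FPKM. Bulge markers (7 genes) summed to 10902 FPKM in CD34a6, 4845 FPKM in bulk and 114 FPKM in HFSC. The keratin gene Krt15 carried this sum, with 9923, 4791 and 37.9 FPKM in CD34a6, bulk and HFSC. Against CD34a6 all 7 were called lower in HFSC, and against bulk 4 were lower and 2 higher, Sox9 (55.2 against 20.4 FPKM) and Tcf7l1 (4.53 against 1.43 FPKM). Cd34 itself was at 327 FPKM in CD34a6, 10.6 FPKM in bulk and 8.70 FPKM in HFSC, and at 38.7 FPKM in CD34+ against 2.26 FPKM in CD34neg. Suprabasal markers (5 genes) summed to 34332 FPKM in bulk, 1120 FPKM in CD34a6 and 198 FPKM in HFSC. Krt10 and Krt1 carried the sum in CD34a6. In HFSC against CD34a6, 6 of 10 tested suprabasal loci were higher and 3 lower, and Ivl (involucrin) was at 30.1 against 6.29 FPKM. The list holds 5 genes, so some of these loci belong to the same gene and the counts are not counts of genes. Immune markers (6 genes) summed to 324, 5.33 and 1.32 FPKM in the same order, and erythroid markers (6 genes) to 180.2, 5.82 and 0.340 FPKM. In bulk 0 of 6 immune and 1 of 6 erythroid markers were listed at 0. Of 14 immediate early and heat shock genes that respond to tissue dissociation, 10 were lower than bulk and 0 higher in CD34a6, and 9 were lower and 1 higher in HFSC. With each column scaled to its summed FPKM, 4 of these 10 turned to the higher value in CD34a6 and none of these 9 in HFSC. The part of these genes and cell types in the differences between bulk and the other columns was not tested. In bulk RNA, fewer cells of a type and less RNA per cell cannot be told apart.

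Glycolysis splits glucose into pyruvate, and lactate dehydrogenase turns pyruvate into lactate while restoring the cofactor that the pathway needs. When oxygen is low, the hypoxia-inducible factors (HIFs) escape hydroxylation by the prolyl hydroxylases (EGLN proteins) and degradation through VHL. Together with ARNT they then bind short DNA elements whose core is ACGTG or GCGTG and raise transcription of glycolytic, transport and stress genes, among them the prolyl hydroxylase genes Egln1 and Egln3, which closes a feedback loop. The skin epidermis is mildly hypoxic, and epidermal keratinocytes draw much of their energy from glycolysis.

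The core sequence ACGTG was searched on both strands in promoter windows of 300 bases, 250 before and 50 after each RefSeq transcription start (GRCm38.p6). A window was found for 33 of the 35 members, 1 of them (Ero1l) by an older symbol. Ndrg1 and Bnip3l had none. ACGTG or its reverse complement CACGT stood in at least 1 window of 23 of these 33 genes (69.7%), beside 5886 of 27025 genes in the whole table (21.8%). Some genes have several windows and so more places for a match. Counted by window, the shares were 27 of 52 (51.9%) for the members and 6447 of 32851 (19.6%) for all. The members were chosen as genes of glycolysis and the hypoxia response, so their higher share is not an independent result. The share was 9 of 14 glycolytic enzymes (64.3%) and 14 of 19 other members (73.7%). The other form of the core, GCGTG, was found in 22 of 33 members (66.7%) beside 35.2% of all genes. A match is a description of these letters, not evidence of a binding site. The windows below are those of the 4 members with the motif that differed most between the HFSC and CD34a6 columns, and that of Ldha, chosen after the matches were counted because it held the most. Each is given 5′ to 3′ on the strand of its gene, with ACGTG and CACGT in capitals.

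Slc16a3, chr11:120948817-120949116, plus strand: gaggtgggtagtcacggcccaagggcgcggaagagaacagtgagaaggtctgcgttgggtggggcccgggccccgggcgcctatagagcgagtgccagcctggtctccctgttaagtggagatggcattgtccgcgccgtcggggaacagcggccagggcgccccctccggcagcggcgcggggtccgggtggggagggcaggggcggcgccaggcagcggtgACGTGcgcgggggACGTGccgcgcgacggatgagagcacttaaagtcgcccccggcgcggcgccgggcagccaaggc
Egln3, chr12:54203825-54204124, minus strand: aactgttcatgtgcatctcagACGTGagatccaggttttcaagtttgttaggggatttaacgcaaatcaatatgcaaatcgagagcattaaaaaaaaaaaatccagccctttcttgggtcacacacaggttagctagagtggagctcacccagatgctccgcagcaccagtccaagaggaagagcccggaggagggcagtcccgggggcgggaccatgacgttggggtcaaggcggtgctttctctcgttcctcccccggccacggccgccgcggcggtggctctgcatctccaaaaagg
Ero1l, chr14:45318523-45318822, minus strand: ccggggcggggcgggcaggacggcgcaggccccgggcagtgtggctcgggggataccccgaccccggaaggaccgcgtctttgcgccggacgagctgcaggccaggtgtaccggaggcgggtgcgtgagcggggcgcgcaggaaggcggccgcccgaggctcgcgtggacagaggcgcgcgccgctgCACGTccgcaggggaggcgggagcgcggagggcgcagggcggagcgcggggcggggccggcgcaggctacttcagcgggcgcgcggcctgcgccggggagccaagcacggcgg
Pgk1, chrX:106186850-106187149, plus strand: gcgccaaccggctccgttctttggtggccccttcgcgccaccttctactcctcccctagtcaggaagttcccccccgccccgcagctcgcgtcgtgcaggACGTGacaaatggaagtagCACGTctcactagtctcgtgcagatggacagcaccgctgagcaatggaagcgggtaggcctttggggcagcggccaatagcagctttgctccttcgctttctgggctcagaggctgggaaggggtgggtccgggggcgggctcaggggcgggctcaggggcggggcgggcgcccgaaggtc
Ldha, chr7:46845554-46845853, plus strand: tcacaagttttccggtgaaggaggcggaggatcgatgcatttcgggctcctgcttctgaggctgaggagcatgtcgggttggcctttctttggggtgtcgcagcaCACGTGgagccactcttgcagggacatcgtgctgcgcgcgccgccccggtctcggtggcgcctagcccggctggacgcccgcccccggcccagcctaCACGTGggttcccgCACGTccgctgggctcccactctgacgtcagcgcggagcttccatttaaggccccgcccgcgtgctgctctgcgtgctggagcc

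Slc16a3, the lactate exporter MCT4, had matches at positions -27 and -14 relative to its start. Egln3 had 1 match at -229, and Ero1l, an oxidase of disulphide bond formation in the endoplasmic reticulum, had 1 at -63. Pgk1 (phosphoglycerate kinase) had 2, at -150 and -131. Ldha (lactate dehydrogenase A) had 5, at -145, -144, -48, -47 and -34. There 2 pairs overlap because the palindrome CACGTG holds the motif on both strands. No binding data enter these counts.

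Compared with bulk, the CD34a6 column had lower FPKM of 11 of the 14 glycolytic enzymes, 7 of them called. The 6 members called higher were Hk2 and 5 members outside glycolysis. Of 35 members tested, 6 were higher and 12 lower, where 22% of all 14441 tested loci were called higher and 24.3% lower. The median log2 fold, computed here as log2 of (FPKM + 1), was -0.35 over the members and 0.00 over all tested loci. Among the 14 glycolytic enzymes 1 was higher and 7 were lower, with a median log2 fold of -0.68. The 21 members outside glycolysis were divided, with 5 higher, 5 lower and a median of -0.25. Both of these counts were near the shares over all tested loci. Without the 8 enzymes with 2 to 184 near-identical pseudogenes (named below), the median of the enzymes was -0.10.

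The sign of these folds depends on the scale, but the place of the members among all tested loci does not. The FPKM of all loci summed to 917078 in bulk and 406723 in CD34a6. With each column scaled to its sum, an alternative chosen after seeing the data, the median over all tested loci moved from 0.00 to 1.18, that of the enzymes to 0.50 and that of the members outside glycolysis to 0.92. Of the 12 members called lower, 6 then had the higher value in CD34a6 (Tpi1, Gpi1, Pgam1, Egln3, Ndrg1 and Mxi1), while Aldoa, Ldha, Pgk1, Pfkl, Slc16a3 and Ddit4 were lower on both scales. The scaled log2 folds of those 6 were 0.02 to 0.52, below the median of 1.18 over all tested loci. Scaling shifts every locus of a pair by the same amount, so both member medians stayed below that of all tested loci. Values below are FPKM as deposited.

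Aldoa (aldolase A) was at 578 FPKM in bulk, 155 FPKM in CD34a6 and 1000.5 FPKM in HFSC. It was 3.72-fold lower in CD34a6 than in bulk (adjusted p = 0.000212 in the authors' deposited table, the smallest value that this table holds). Ldha, the last enzyme of the chain, was at 411, 129 and 1044 FPKM in bulk, CD34a6 and HFSC, and 3.18-fold lower in CD34a6 than in bulk. Both had their lowest level in CD34a6 and their highest in HFSC. Pgk1, the first ATP-forming enzyme, ran from 16.4 FPKM in bulk to 5.65 FPKM in CD34a6 and 74.2 FPKM in HFSC. Pfkl, the liver form of the committing enzyme phosphofructokinase, was at 29.6, 11.6 and 90.1 FPKM in the same order. Gpi1, Tpi1 and Pgam1 were the other enzymes called lower in CD34a6, by 1.96-fold, 2.24-fold and 1.73-fold, and all 3 turned on the scale of summed FPKM. Each of these 7 enzymes was then called higher in HFSC than in CD34a6. Eno1, Pkm, Pfkp and Gapdh were 1.28-fold to 1.59-fold lower in CD34a6 than in bulk without passing the threshold, and these 4 turned on that scale too.

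Hk2 went the other way. Hexokinase 2, the inducible enzyme that traps glucose in the cell, was at 5.28 FPKM in bulk, 33.9 FPKM in CD34a6 and 31.5 FPKM in HFSC. It was 6.43-fold higher in CD34a6 than in bulk and 5.97-fold higher in HFSC than in bulk, and the CD34a6 and HFSC columns did not differ by the authors' test (adjusted p = 0.490). Hk1, the constitutive form, was at 42.9, 53.9 and 45.8 FPKM in bulk, CD34a6 and HFSC and was called in none of the 3 pairs. Hk2 thus made up 10.95% of the summed FPKM of the hexokinases Hk1 and Hk2 in bulk, 38.6% in CD34a6 and 40.8% in HFSC. Pfkm, the muscle form of phosphofructokinase, was at 7.29, 17.5 and 5.71 FPKM, which is 7.2% of the summed FPKM of the 3 phosphofructokinase genes in bulk, 23.9% in CD34a6 and 2.6% in HFSC. Pfkm was called 3.06-fold lower in HFSC than in CD34a6, while its 2.40-fold difference between CD34a6 and bulk did not pass (adjusted p = 0.113 in the authors' deposited table). The Pfkm locus also covers Senp1 on the opposite strand, at 15.5, 17.3 and 16.8 FPKM. On its own strand it covers 2 other annotated genes, both at 0.136 FPKM or less in these 3 columns.

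Outside the enzyme chain, the genes called higher in CD34a6 than in bulk were Pfkfb3, Car9, Car12, P4ha2 and Ak4. Car9 and Car12 encode carbonic anhydrases that face the outside of the cell and help remove acid. Car9 was at 0.639 FPKM in bulk, 3.47 FPKM in CD34a6 and 14.7 FPKM in HFSC, and Car12 at 7.28, 16.7 and 123 FPKM. Ak4, a mitochondrial adenylate kinase, was at 3.24, 11.02 and 22.9 FPKM. Each step from bulk to CD34a6 to HFSC was called as higher for Car9, Car12 and Ak4. Pfkfb3, which makes the fructose 2,6-bisphosphate that activates phosphofructokinase, followed the same order at 2.34, 4.29 and 26.7 FPKM, as did P4ha2, a subunit of collagen prolyl 4-hydroxylase, at 3.95, 7.17 and 36.6 FPKM. Slc16a3, Egln3, Ndrg1, Ddit4 and Mxi1 were called lower in CD34a6 than in bulk, Slc16a3 by 13.2-fold and the other 4 by 1.62-fold to 2.57-fold. Of these, Slc16a3 and Ddit4 were lower on the scale of summed FPKM as well.

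**Figure D1:**
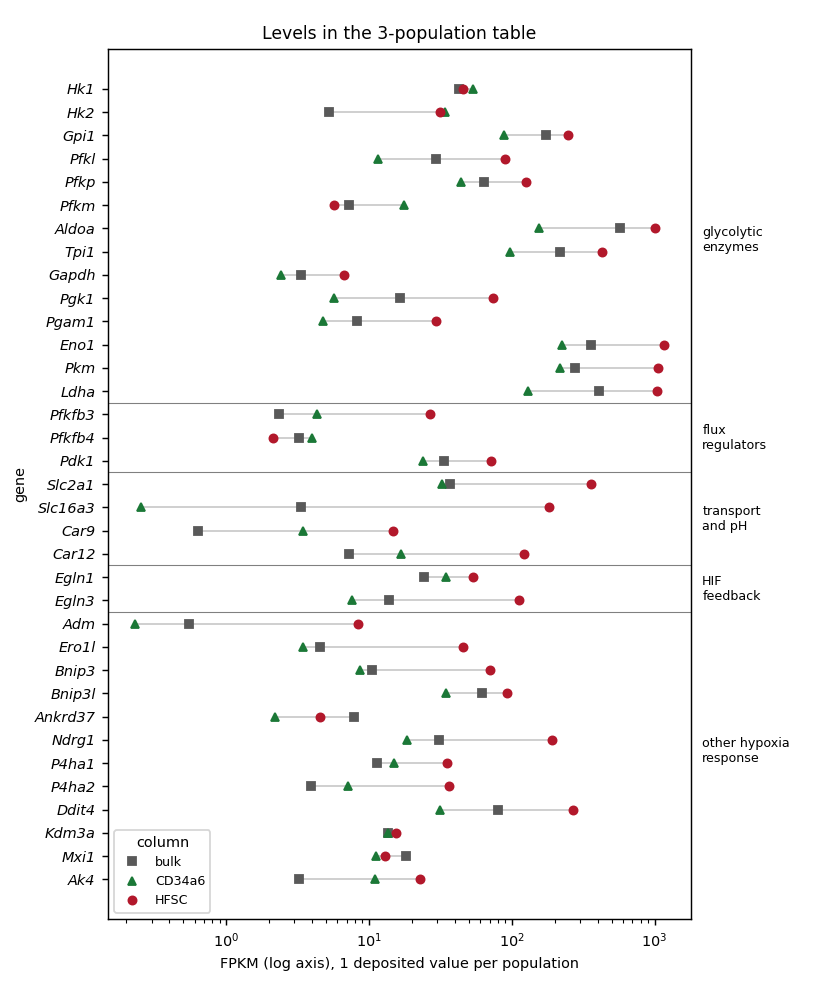
FPKM (log axis) of each of the 35 members in the bulk (squares), CD34a6 (triangles) and HFSC (circles) columns of the 3-population table, 1 deposited value per population and no error bar. The HFSC circle lies farthest right for 29 members, and the CD34a6 triangle lies left of the bulk square for 24 (7 when each column is scaled to its summed FPKM).

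The HFSC column held the highest FPKM of the 3 populations for 29 members, the CD34a6 column for 4 (Hk1, Hk2, Pfkm and Pfkfb4) and bulk for 2 (Ankrd37 and Mxi1). Against bulk, 25 of 35 members were higher in HFSC and 0 lower, where 19% of 14035 tested loci were called higher and 24.7% lower. The median log2 fold was 1.702 over the members and -0.11 over all tested loci. Against CD34a6, 27 members were higher and 2 lower (Pfkm and Pfkfb4), where 25.2% of 13962 tested loci were called higher and 29% lower. There the medians were 2.202 and -0.07. In all, 23 members were called higher in HFSC than in both other columns, 8 of them glycolytic enzymes. These 3 comparisons share their populations and are not independent of each other. As a share of the FPKM of all loci, the 14 enzymes took 0.239% in bulk, 0.267% in CD34a6 and 1.11% in HFSC, and the other 21 members 0.0406%, 0.0699% and 0.363%. In the 4 culture populations, normalised separately, the enzymes took 0.938% to 1.36% and the other members 0.316% to 0.688%. High shares were thus not particular to the HFSC column.

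By role, the transport genes had the largest median log2 fold in HFSC, 3.58 against bulk and 3.12 against CD34a6. Slc16a3 was at 3.32 FPKM in bulk, 0.253 FPKM in CD34a6 and 184 FPKM in HFSC. It was 55.2-fold higher in HFSC than in bulk and 727-fold higher than in CD34a6, where its level was below 1 FPKM, so the second ratio rests on a very low value. Another lactate carrier, Slc16a1 (MCT1), was at 12.4, 4.43 and 44.7 FPKM. Of the summed FPKM of both carriers, Slc16a3 made up 21.1% in bulk, 5.4% in CD34a6 and 80.4% in HFSC. Slc2a1, the glucose transporter GLUT1, was at 37.2 FPKM in bulk, 32.7 FPKM in CD34a6 and 361 FPKM in HFSC. Bulk and CD34a6 did not differ by the authors' test for this gene (adjusted p = 0.523 in the authors' deposited table), and HFSC was 9.71-fold and 11.05-fold above them. Car9 was 23.0-fold and Car12 16.9-fold higher in HFSC than in bulk. All 4 transport genes were called higher in HFSC than in either other column.

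Among the flux regulators, Pfkfb3 was 11.4-fold higher in HFSC than in bulk. Its relative Pfkfb4 was at 3.26 FPKM in bulk, 3.98 FPKM in CD34a6 and 2.13 FPKM in HFSC, and was called lower in HFSC than in CD34a6 by 1.87-fold. Pfkfb3 therefore supplied 41.8% of the FPKM of this pair in bulk, 51.9% in CD34a6 and 92.6% in HFSC. Pdk1, which inhibits pyruvate dehydrogenase and so keeps pyruvate out of the mitochondrion, was at 33.7, 23.9 and 71.7 FPKM, and was 2.13-fold higher in HFSC than in bulk (adjusted p = 0.0140 in the authors' deposited table). Among the pyruvate dehydrogenase kinase genes Pdk1 to Pdk4, Pdk1 made up 47.0% of the FPKM in bulk, 36.9% in CD34a6 and 82.3% in HFSC.

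Both HIF feedback genes were called higher in HFSC than in each other column. Egln1, which encodes the main oxygen-sensing hydroxylase of HIF-1, was at 24.4 FPKM in bulk, 34.6 FPKM in CD34a6 and 53.5 FPKM in HFSC. Egln3 was at 13.9, 7.63 and 113 FPKM, which is 8.13-fold higher in HFSC than in bulk and 14.8-fold higher than in CD34a6. Egln1 was 2.19-fold and 1.54-fold higher in the same pairs. With Egln2 included, Egln3 made up 24.03% of prolyl hydroxylase FPKM in bulk, 12.2% in CD34a6 and 59.4% in HFSC. The 2 feedback genes spanned log2 folds of 1.098 to 2.93 in HFSC against bulk, and the 14 glycolytic enzymes -0.30 to 2.37 with a median of 1.16. Against CD34a6 the feedback genes spanned 0.61 to 3.72 and the enzymes -1.46 to 3.498 with a median of 2.21. The ranges overlapped in both pairs.

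Eno1 (enolase 1) was at 358 FPKM in bulk, 224 FPKM in CD34a6 and 1167 FPKM in HFSC, and Pkm (pyruvate kinase) at 278, 218 and 1066 FPKM. With Ldha and Aldoa they had the highest levels of all 14 enzymes in HFSC. Tpi1 (triosephosphate isomerase) was at 217, 97.0 and 428 FPKM and Gpi1 (glucose 6-phosphate isomerase) at 173, 88.3 and 248 FPKM. Pfkp, the platelet form of phosphofructokinase, was at 63.9, 44.1 and 127 FPKM. Its locus overlaps Pitrm1 on the opposite strand. Aldoa, Gpi1, Gapdh, Hk1 and Pfkm were the 5 enzymes that did not pass in HFSC against bulk. The adjusted p of Aldoa was 0.0637 and that of Gapdh 0.0854 in the authors' deposited table.

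Of the 12 other hypoxia response genes, 8 were higher in HFSC than in bulk and 8 higher than in CD34a6. Of all tested loci, 19% and 25.2% were called higher in these pairs. Ero1l was at 4.53 FPKM in bulk, 3.45 FPKM in CD34a6 and 45.7 FPKM in HFSC, and was 10.1-fold and 13.3-fold higher in HFSC. Bnip3, a receptor for the removal of mitochondria, was at 10.5, 8.62 and 70.0 FPKM. Its relative Bnip3l was at 61.6, 34.6 and 92.5 FPKM and was called only against CD34a6. Ndrg1, a stress gene also linked to epithelial differentiation, was at 31.2, 18.5 and 191 FPKM, and Ddit4 (REDD1), an inhibitor of mTOR complex 1, at 80.0, 31.2 and 268 FPKM. P4ha1, which encodes the alternative subunit to that of P4ha2, was at 11.3, 15.01 and 35.01 FPKM. P4ha2 made up 25.8% of their summed FPKM in bulk, 32.3% in CD34a6 and 51.1% in HFSC. Adm, which encodes the vasodilator adrenomedullin, was at 0.550, 0.228 and 8.38 FPKM. Its 36.7-fold difference between HFSC and CD34a6 did not pass (adjusted p = 0.191 in the authors' deposited table), although the smaller one against bulk did.

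A few members stayed outside this pattern. Kdm3a, a histone H3 lysine 9 demethylase, was at 13.6, 13.6 and 15.4 FPKM in bulk, CD34a6 and HFSC. Mxi1, a MAX-binding antagonist of MYC, was at 18.3, 11.3 and 13.04 FPKM, and Ankrd37 at 7.87, 2.21 and 4.55 FPKM. Hk1, Kdm3a and Ankrd37 were the 3 members called in none of the 3 pairs. The Ankrd37 locus overlaps Ufsp2 on the opposite strand, which was at 24.7, 20.95 and 20.99 FPKM.

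**Figure D2:**
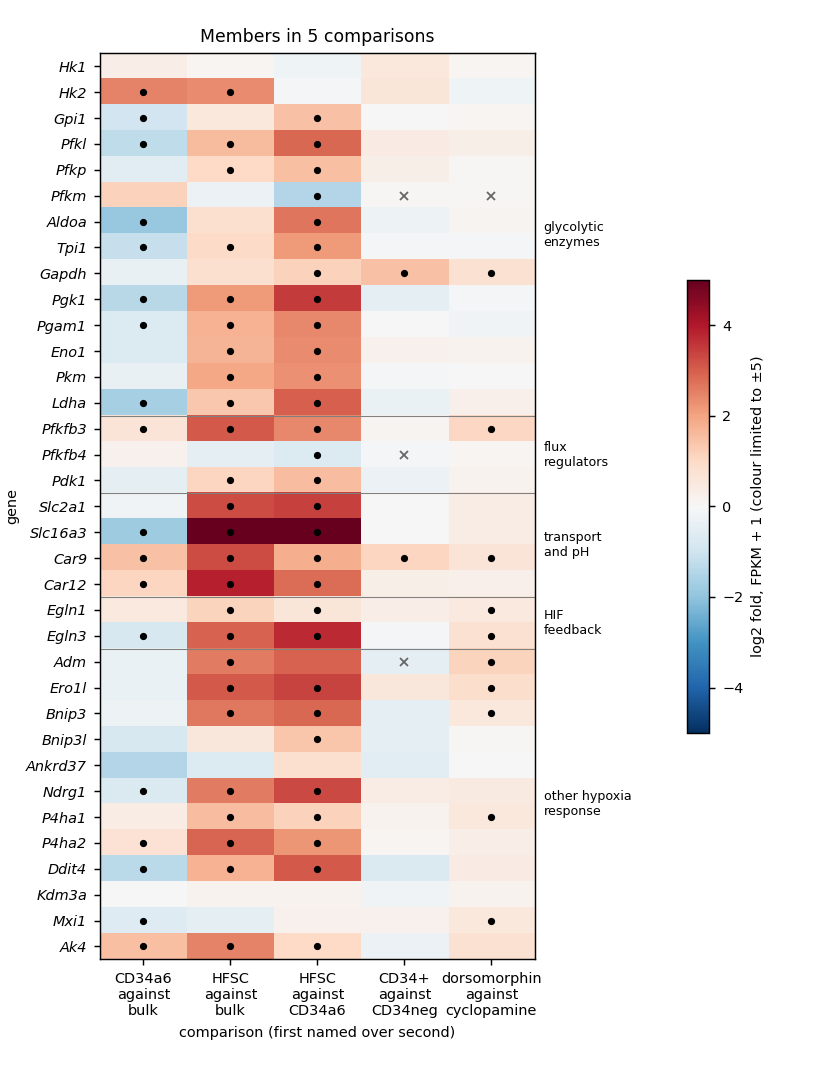
log2 fold of (FPKM + 1) for the 35 members (rows, by role) in 5 comparisons (columns, first named population over second), with dots where the authors' adjusted p was under 0.05 and crosses where the pair was not tested. The HFSC comparisons are red for 31 members each (35 against bulk and 29 against CD34a6 when columns are scaled to their summed FPKM), while the culture comparisons hold 2 and 10 dots.

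Gapdh, Pgk1 and Pgam1 ranked unlike the other enzymes of the lower chain in the 3-population table. Gapdh was at 3.36 FPKM in bulk, 2.42 FPKM in CD34a6 and 6.70 FPKM in HFSC, which put it at the 56.0th, 50.8th and 63.7th percentile of loci. In the culture tables, which were normalised separately, it was at 306 to 841 FPKM and at the 98.7th percentile or above. Pgk1 lay at the 76.9th, 59.7th and 95.1st percentile and Pgam1 at the 67.0th, 57.6th and 86.3rd. In contrast, Aldoa, Eno1, Pkm and Ldha lay at the 98.1st percentile or above in every population of every table. In the annotation (GENCODE vM21), Gapdh shared stretches of at least 300 bases at 90% identity or more with 191 other genes, 184 of them pseudogenes. Ldha shared such stretches with 17 other genes, Pkm with 9, Pgk1 with 4 and Pgam1 with 3. How the authors' counting split reads among such copies was not tested. The levels and folds of Gapdh, Pgk1 and Pgam1 in the 3-population table are uncertain to that extent, and those of Gapdh in the culture tables too. The genes sharing stretches with Gapdh summed to 22.2, 31.1 and 41.2 FPKM in bulk, CD34a6 and HFSC, above Gapdh itself. In the culture populations they summed to 58.1 to 69.8 FPKM, below Gapdh. Those of Pgk1 and of Pgam1 summed to 0.43 FPKM or less in the 3-population table. Without the 8 enzymes with 2 to 184 such pseudogenes (Aldoa, Tpi1, Gapdh, Pgk1, Pgam1, Eno1, Pkm and Ldha), the median log2 fold of the enzymes in HFSC against CD34a6 was 0.69 in place of 2.21.

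**Figure D3:**
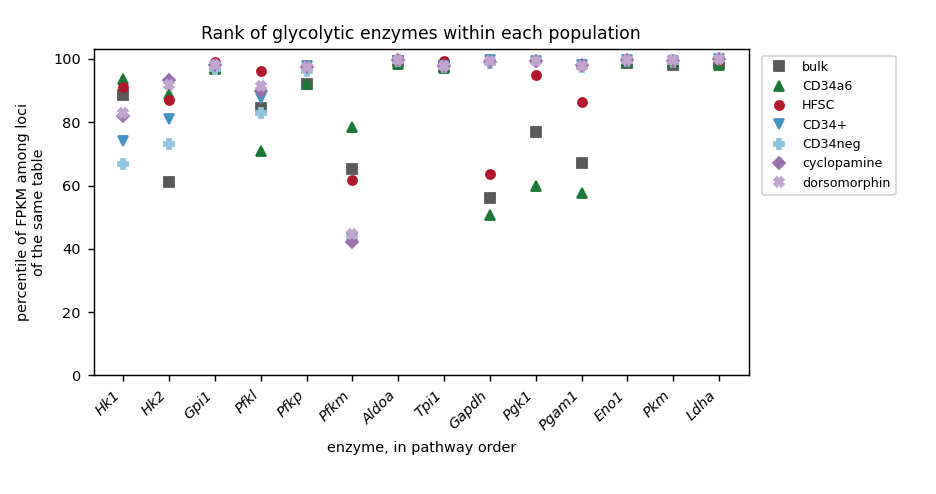
Percentile of FPKM among the loci of the same table (vertical axis) for the 14 glycolytic enzymes in pathway order, with 1 symbol per population. Gapdh, Pgk1 and Pgam1 lie between the 50.8th and 95.1st percentile in bulk, CD34a6 and HFSC and at the 97.5th or above in the 4 culture populations.

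The genes around the members were looked at in lists of their own. Hif1a, the oxygen-regulated subunit of HIF-1, was at 27.9 FPKM in bulk, 95.3 FPKM in CD34a6 and 235 FPKM in HFSC, and each step was called. Epas1 (HIF-2α) was at 5.40, 0.717 and 3.86 FPKM, and Arnt, the partner subunit, at 13.8, 25.6 and 23.7 FPKM. Of 24 tested hypoxia targets outside the members, HFSC was higher than bulk for 12 and lower for 2, with a median log2 fold of 0.76. Of all tested loci in this pair, 19% were called higher and 24.7% lower, with a median of -0.11. Against CD34a6, 10 of these targets were higher and 5 lower, with a median of 0.42. There 25.2% of all tested loci were called higher and 29% lower, with a median of -0.07. Vegfa, the angiogenic growth factor, was at 2.26, 5.81 and 54.9 FPKM, and Stc2 (stanniocalcin 2) at 0.286, 0.128 and 25.5 FPKM. The hypoxia targets outside the members included some that went the other way, such as Pygl, the liver form of glycogen phosphorylase, which was at 17.1, 85.8 and 12.2 FPKM.

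Neighbouring routes of glucose carbon were counted in the same way. Of 16 genes of the tricarboxylic acid cycle, 7 were called lower in CD34a6 than in bulk, 0 higher and 9 not called. Of 6 tested genes of the pentose phosphate pathway 4 were lower, 0 higher and 2 not called, where 24.3% of all tested loci were called lower. On the scale of summed FPKM, 5 of these 7 cycle genes and 1 of these 4 pentose phosphate genes turned to the higher value in CD34a6. Cs (citrate synthase) was at 279, 71.7 and 120.5 FPKM in bulk, CD34a6 and HFSC, and G6pdx (glucose 6-phosphate dehydrogenase) at 49.99, 8.05 and 41.7 FPKM. In HFSC against bulk, 2 of 16 cycle genes were higher and 5 lower, where 19% of all tested loci were called higher and 24.7% lower. Their median log2 fold was -0.48, beside -0.11 over all tested loci. On the scale of summed FPKM these medians were 0.44 and 0.82, so the cycle genes stayed below all loci. The median of the glycolytic enzymes in the same pair was 1.16 as deposited and 2.09 on that scale. Mpc2, a subunit of the mitochondrial pyruvate carrier, was at 154, 34.3 and 30.6 FPKM. Ldhb, the lactate dehydrogenase of oxidative tissue, was at 26.5, 19.8 and 5.60 FPKM, so that Ldha made up 93.9%, 86.7% and 99.5% of the summed FPKM of Ldha and Ldhb.

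Between the CD34+ and CD34neg cells sorted from 3C cultures, few members differed by the authors' test. Of 32 members tested, 2 were higher in CD34+ (Gapdh and Car9) and 0 lower. Among all 11370 tested loci, 2.08% were higher and 4.71% lower, and no reading is made of a count of 2. Pfkm, Pfkfb4 and Adm were not tested. The median log2 fold was 0.03 over the tested members and -0.07 over all tested loci. It was 0.03 over 13 glycolytic enzymes and 0.04 over 19 members outside glycolysis. A p above the threshold does not show that the levels were equal.

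Car9 was at 30.7 FPKM in CD34+ and 14.2 FPKM in CD34neg, 2.16-fold higher (adjusted p = 0.00957 in the authors' deposited table). Gapdh was at 841 FPKM in CD34+ and 308 FPKM in CD34neg, 2.73-fold higher (adjusted p = 0.00275 in the authors' deposited table). The limit from its near-identical copies, given above, holds for this fold too. The enzymes on either side of Gapdh did not follow it. Tpi1 was at 149.9 FPKM against 159 FPKM and Pgk1 at 476 FPKM against 649.6 FPKM. Ldha was at 2066 FPKM against 2635 FPKM, the highest level of any member in either fraction. The FPKM of all loci summed to 511143 in CD34+ and 679559 in CD34neg. Scaled to these sums, Tpi1 and Ldha turned to the higher value in CD34+, at log2 folds of 0.33 and 0.06. On that scale 12 of 13 tested enzymes were higher in CD34+, with a median of 0.44 beside 0.34 over all tested loci. Hk1 and Hk2 were 1.504-fold and 1.56-fold higher in CD34+ without passing (adjusted p = 0.116 and 0.200 in the authors' deposited table). The member nearest to a call in the other direction was Ddit4, at 25.9 FPKM in CD34+ and 43.2 FPKM in CD34neg (adjusted p = 0.0528 in the authors' deposited table).

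The feedback genes were at 104 FPKM against 81.8 FPKM (Egln1) and 246 FPKM against 263 FPKM (Egln3) (adjusted p = 0.318 and 0.784 in the authors' deposited table). Slc2a1 was at 585 FPKM against 591 FPKM and Slc16a3 at 49.1 FPKM against 47.8 FPKM. Hif1a was at 375 FPKM against 432 FPKM, and 0 of 11 tested genes of the HIF subunits and their regulators were called. Outside the members, Mpc1 and Mpc2, which together form the mitochondrial pyruvate carrier, were both lower in CD34+, at 25.5 FPKM against 58.2 FPKM and at 29.7 FPKM against 60.9 FPKM. Of 16 genes of the tricarboxylic acid cycle, 3 were lower in CD34+ (Suclg1, Sdhb and Sdhd) and 0 higher, where 4.71% of all tested loci were called lower and 2.08% higher. Sdhd, a membrane anchor of succinate dehydrogenase, was at 57.2 FPKM against 107.7 FPKM. Bulge markers summed to 195 FPKM in CD34+ and 54.5 FPKM in CD34neg, and suprabasal markers to 5.32 and 11.2 FPKM.

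In cultures treated for 48 h, a group of hypoxia response genes was higher with dorsomorphin than with cyclopamine, among them both HIF feedback genes, while 1 glycolytic enzyme was. Of 34 members tested, 10 were higher with dorsomorphin and 0 lower, where 1.26% of 11505 tested loci were called higher and 1.31% lower. Only Pfkm was not tested. Among 13 tested glycolytic enzymes 1 was called (Gapdh), and the median log2 fold was 0.11. Among the 21 members outside glycolysis 9 were called, and the median was 0.44. All 21 had a higher FPKM with dorsomorphin, by a log2 fold of 0.00 (Ankrd37) to 1.11 (Adm), and 9 of the 13 enzymes did. Over all tested loci the median was -0.02. The difference between enzymes and other members has no test of its own, since genes are not replicates.

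Adm was at 2.92 FPKM with cyclopamine and 7.48 FPKM with dorsomorphin, 2.56-fold higher (adjusted p = 0.00479 in the authors' deposited table, the smallest value in this table). Pfkfb3 was at 15.9 FPKM and 33.9 FPKM, 2.13-fold higher with the same adjusted p. Ero1l was at 254 FPKM and 469 FPKM, Egln3 at 199 FPKM and 338 FPKM, and Car9 at 25.1 FPKM and 39.4 FPKM. These 5 genes had the same smallest adjusted p and folds of 1.57 to 2.56, and Mxi1 (1.46-fold) had that adjusted p too. Both feedback genes were called, Egln1 being at 95.6 FPKM with cyclopamine and 133 FPKM with dorsomorphin (1.39-fold, adjusted p = 0.0143 in the authors' deposited table). Their log2 folds, 0.47 and 0.76, lay above those of every tested enzyme but Gapdh (0.77).

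The other called members were Bnip3, P4ha1, Mxi1 and Gapdh. Bnip3 was at 104 FPKM with cyclopamine and 152 FPKM with dorsomorphin, and P4ha1 at 24.01 FPKM and 35.3 FPKM (adjusted p = 0.0115 for both in the authors' deposited table). Mxi1 was at 14.5 FPKM and 21.2 FPKM. Its locus holds the opposite-strand gene Gm10197, at 22.7 FPKM and 29.1 FPKM. Gapdh was at 306 FPKM and 522 FPKM, 1.71-fold higher (adjusted p = 0.0337 in the authors' deposited table). This fold carries the same limit from near-identical copies. Pgk1, the next enzyme, was at 514 FPKM and 478 FPKM, and Aldoa at 669 FPKM and 732 FPKM. Ldha was at 2035 FPKM and 2437 FPKM (adjusted p = 0.579 in the authors' deposited table), and Hk2 at 57.8 FPKM and 49.3 FPKM.

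Several members had higher values with dorsomorphin without passing the threshold. Ak4 was at 69.0 FPKM with cyclopamine and 118 FPKM with dorsomorphin (adjusted p = 0.0542 in the authors' deposited table). Slc16a3 was at 40.9 FPKM and 53.7 FPKM (adjusted p = 0.102), and Slc2a1 at 479.9 FPKM and 619 FPKM (adjusted p = 0.197). Ndrg1 was at 389 FPKM and 529 FPKM (adjusted p = 0.108). In the culture tables the opposite-strand gene Gm17035 within the Ndrg1 locus was listed at 373 FPKM and 491 FPKM in the same populations, near the values of Ndrg1, whereas in the separately normalised 3-population table it was at 0.167 to 0.574 FPKM. Whether both entries count the same reads was not tested. Bnip3l, Ankrd37, Kdm3a, Pfkfb4 and Pdk1 differed by 1.14-fold or less.

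The HIF subunit genes were not called in this pair. Hif1a was at 278 FPKM with cyclopamine and 346 FPKM with dorsomorphin (adjusted p = 0.730 in the authors' deposited table), Epas1 at 7.04 FPKM and 5.97 FPKM, and Arnt at 30.8 FPKM and 35.6 FPKM. Of 22 tested hypoxia targets outside the members, 3 were higher (Stc2, Zfp395 and Gbe1) and 0 lower, with a median log2 fold of 0.24. Of all tested loci in this pair, 1.26% were called higher and 1.31% lower. Stc2 was at 18.7 FPKM and 34.95 FPKM. Vegfa was at 177 FPKM and 248 FPKM without a call (adjusted p = 0.167 in the authors' deposited table). None of the 16 genes of the tricarboxylic acid cycle was called, and their median log2 fold was -0.01. Suprabasal markers summed to 288 FPKM with cyclopamine and 161 FPKM with dorsomorphin, bulge markers to 90.6 and 71.3 FPKM, and keratinocyte markers to 9566 and 9985 FPKM. The part of these markers in the differences of the members was not tested.

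**Figure D4:**
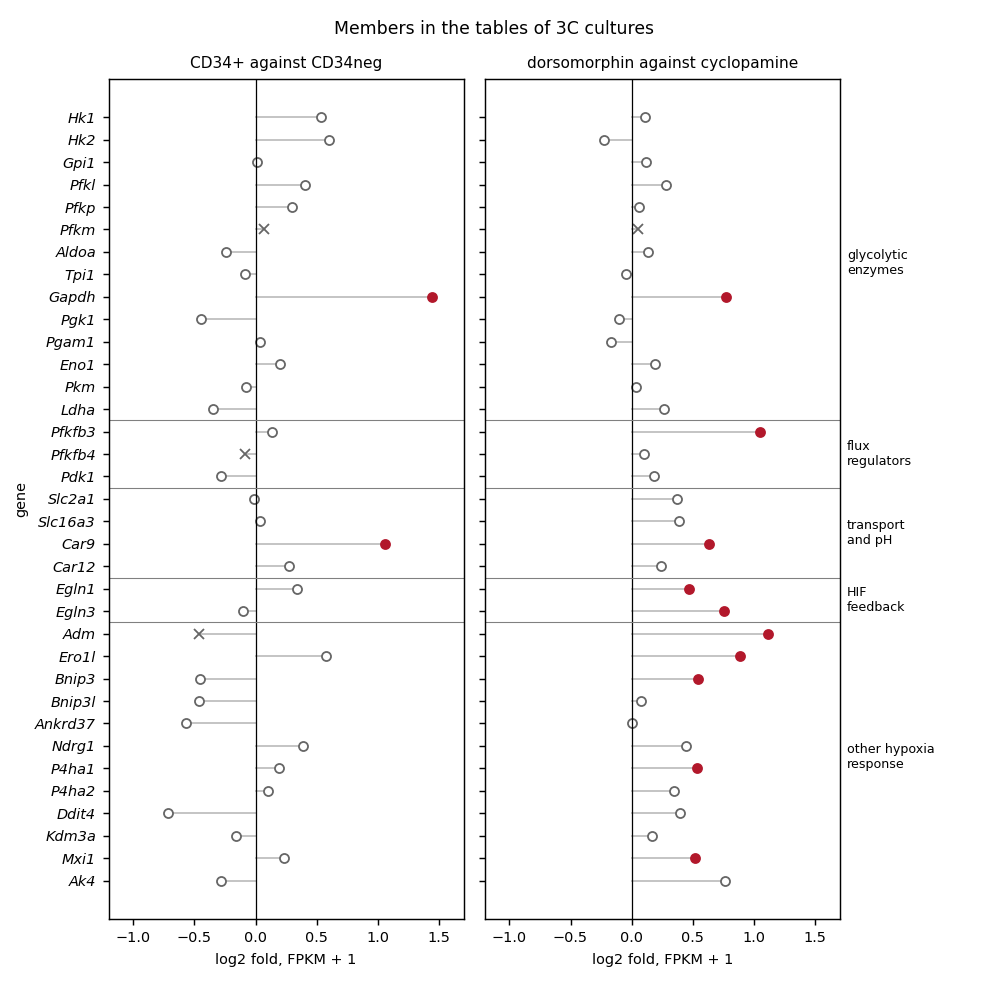
log2 fold of (FPKM + 1) for the 35 members in CD34+ against CD34neg cells (left) and in dorsomorphin against cyclopamine cultures (right), 1 value per gene and no error bar. Filled points had an authors' adjusted p under 0.05, open points did not, and crosses were not tested. In the right panel 10 points are filled, all to the right of 0.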

How the data were processed

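Polyadenylated RNA of 21 libraries in 7 groups of 3 was sequenced after directional library preparation, per the labels' protocols. Per the submitters' processing notes the build was GRCm38. For the 9 libraries of the 3-population table the notes list Cuffdiff, Cufflinks 2.2.1, StringTie 1.1.0 and HISAT 0.1.6, and the labels' own text gives TopHat2 as aligner. For the other 12 they list DESeq2 1.8.1, Subread 1.4.2 with featureCounts, TopHat2 2.0.13 and cutadapt 1.5. Their tables have the Cuffdiff layout per the file headers, so the tool behind their p-values is not settled.

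The deposited tables hold 1 FPKM value per population, per the file headers, which is the authors' estimate over the replicates. The authors' log2 fold is the ratio of those values and was turned here so that the first named population is the numerator. The test statistic is a score deposited by the authors and was not used. The p-value and q-value columns are the authors'. The smallest deposited p-value was 5e-05, and the q-values equalled a Benjamini-Hochberg adjustment over the tested loci of a table to within 5.29e-07. The column 3C_HFSC was read as CD34+ from the labels.

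Lines repeated per identifier were counted once. Medians use log2 of (FPKM + 1). Near-identical genes were found with BLAST+ 2.17.0 on GENCODE vM21 transcripts, matched by symbol. Scripts ran in Python 3.11.15 with pandas 2.3.3 and were tested on simulated data. The members and gene lists were chosen with earlier results of these data known. From lists beside the members, the genes named are those called with the largest fold at 1 FPKM or more, with Hif1a, Epas1, Arnt and Vegfa always, and Pygl, Slc16a1, Ldhb, Cd34 and genes of the share calculations, chosen after their values were seen. Alternatives covered thresholds, adjustments, pseudocounts, centring, scaling to summed FPKM, exonic length and overlapping loci. The rule for promoters took 4 members by fold in HFSC against CD34a6. Protein sequences were not used here.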

Additional observations from a re-analysis of the deposited data

How the results depend on the processing

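Counts of called members were recomputed under 90 alternatives, of which 74 stayed within 1.5 times. These include counts of 0 that stayed at 0. No member was called lower in HFSC against bulk, CD34+ against CD34neg or dorsomorphin against cyclopamine. Stricter thresholds, minimum levels or folds and subsets of loci cannot raise a count of 0, so the 74 overstates how much was put to a test. At an adjusted p under 0.01, 7 members in place of 12 were lower in CD34a6 than in bulk and 6 in place of 10 were higher with dorsomorphin. Under Benjamini-Yekutieli adjustment these were 6 and 6, and 1 in place of 2 was higher in CD34+. With a fold of at least 1.5, 6 were higher with dorsomorphin. Without loci holding another gene on the same strand, 1 in place of 2 was lower in HFSC than in CD34a6, since Pfkm is left out. An alternative added after seeing the data kept the 18 loci with no other gene on either strand. It left 7 lower and 3 higher in CD34a6 than in bulk, 15 higher in HFSC than in bulk, 16 higher and 1 lower in HFSC than in CD34a6, 0 higher in CD34+ and 4 higher with dorsomorphin. These are smaller because fewer members are counted. A second added alternative scaled each column to its summed FPKM and kept the authors' calls. Of the called members, 12 in place of 6 were then higher and 6 in place of 12 lower in CD34a6 than in bulk. In the other 4 comparisons no called member turned.

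The limit of 1.5 times for medians applies to the fold before taking log2, so a small median can move far relative to itself within it. Of 70 alternatives 65 stayed within it. On the scale of summed FPKM, the medians in CD34a6 against bulk turned from -0.68 to 0.50 (enzymes) and from -0.25 to 0.92 (members outside glycolysis), and in HFSC against bulk they rose from 1.16 to 2.09 and from 2.58 to 3.51. Over all tested loci the medians moved from 0.00 to 1.18 and from -0.11 to 0.82 in the same pairs. All loci of a pair shift by the same amount, so the place of the members among them did not change. Without the 8 enzymes with 2 to 184 near-identical pseudogenes, the median of the enzymes was 0.69 in place of 2.21 in HFSC against CD34a6, -0.10 in place of -0.68 in CD34a6 against bulk, and 0.40 in place of 0.03 in CD34+ against CD34neg. Exonic length was taken as all annotated exon bases of a gene together. Across genes, the log2 fold was correlated with this length (Spearman's rho of 0.31, 0.28, -0.07, 0.36 and 0.14 in the order of the comparisons), and subtracting that trend moved no median past that limit. It gave -0.04 in place of -0.25 for the members outside glycolysis in CD34a6 against bulk and 0.12 in place of 0.03 for the enzymes in CD34+ against CD34neg.

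No paired analysis was possible because the tables hold 1 value per population. Leaving out a replicate was not run for the same reason. Read depth is unknown, so no detection limit is given.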

Other observations

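Other isoforms of the pathway, a list of 24 genes of which 22 were matched, did not share the direction of the members in the HFSC column. Among 15 tested in HFSC against CD34a6, 2 were higher and 8 lower in the authors' deposited table, with a median log2 fold of -0.55. Of all tested loci in this pair, 25.2% were called higher and 29% lower. Slc16a7, a carrier with high affinity for pyruvate and lactate, was at 1.11 FPKM in bulk, 10.2 FPKM in CD34a6 and 0.699 FPKM in HFSC. Slc2a4, the insulin-regulated glucose transporter GLUT4, was at 1.013 FPKM in bulk and 3.58 FPKM in CD34a6. Eno3, the muscle enolase, was at 10.96 FPKM in CD34a6 and 2.46 FPKM in HFSC.

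Genes of gluconeogenesis and glycogen were counted as well. Against CD34a6, 3 of 12 tested were higher and 4 lower in HFSC, where 25.2% of all tested loci were called higher and 29% lower. These counts are near those shares, and no reading is made of them. Pck2, the mitochondrial phosphoenolpyruvate carboxykinase, was at 4.56 FPKM in bulk, 5.87 FPKM in CD34a6 and 26.7 FPKM in HFSC. Pygb, the brain form of glycogen phosphorylase, was at 13.2, 52.3 and 17.7 FPKM in the same order. These genes were read from the same table as the members and carry the same limits.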
